A study of Mus musculus with 3 samples.

Results

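The Id genes, Id1, Id2, Id3 and Id4, encode helix-loop-helix proteins that lack the basic region other proteins of this class use to touch DNA. They were followed through the change of mouse ovarian surface epithelial cells, the cell layer covering the ovary, from an epithelial to a mesenchymal form. Members were chosen by gene name, with Idb1 to Idb4 as the older names, and every probe so named was taken. Each of the 4 genes had 1 probe, so the family made up 4 of the 20371 probes on the array and 4 of the 9138 genes that could be named. Id2 was about 2-fold higher in mesenchymal cells, and the other 3 genes did not pass the test.

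ID proteins bind E proteins, the broadly expressed basic helix-loop-helix factors, and keep them from pairing with tissue-specific partners and from binding the E-box, the short DNA element these dimers recognise. They are thereby known as brakes on differentiation, and they are induced by serum and by bone morphogenetic proteins (BMPs) acting through the factors SMAD1 and SMAD5. In epithelial cells transforming growth factor beta (TGF-beta) is known to lower Id gene expression, and ID proteins are known to counter its effects on the epithelial state.

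Mesenchymal cells had been held for 1 week in 15% fetal bovine serum, and epithelial cells of the same cultures had stayed in 2.5% serum. All came from primary ovarian surface epithelium of superovulated, mated C57/Bl6 females, and the labels name no transgene or deletion for either group. There were 3 cultures, each measured on 2 Agilent arrays that held both RNAs together with the dyes Cy3 and Cy5 exchanged, giving 6 arrays in all (n = 3 cultures). Serum and cell form changed together in every culture, so their parts cannot be told apart, and how many animals went into a culture is not given in the sources used here.

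Such arrays give a ratio of both RNAs on the same spot, here expressed as a log2 ratio with mesenchymal RNA on top and averaged over the 2 arrays of a culture. Normalised intensities are in linear units. A feature is a gene, through its brightest probe, or an unnamed probe. It was called at a Benjamini-Hochberg adjusted p under 0.05 from limma over all 17861 features tested, and 11.9% of them were called, 5.94% higher and 5.93% lower in mesenchymal cells. The median log2 ratio over all features was -0.0032. Dye effects were large. The log2 ratio had a dye effect (Cy5 over Cy3, after the cell difference is taken out) past the same threshold for 10215 features, and the dye effect had an SD of 0.463 over features, against 0.310 for the log2 ratio itself. Because the dye effect cancels only in the mean of both orientations, both are given below for each Id gene. Arrays of the same orientation correlated at 0.811 to 0.930 over features. Those of opposite orientation, after turning, correlated at -0.500 to -0.103. One array, that of culture 3 with mesenchymal RNA in Cy3, stood apart with 1639 outlier-flagged probes against 61 to 467 on the others.

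The labelled cell type was compared with its markers. Of 7 tested markers of ovarian surface epithelium and mesothelium, all were flagged well above background in both RNAs on all 6 arrays, although that flag was weak, since 18.5% to 81.5% of negative control spots carried it too. Of the 7, 6 were lower in mesenchymal cells and 0 higher, with a median log2 ratio of -0.91. Probes of 3 keratins among them were saturated on some arrays, including Krt19, whose value is that median. The 4 genes never saturated had a median of -1.48, and their summed intensity was 49714 to 62618 in mesenchymal and 122751 to 131778 in epithelial cultures. Gpm6a, a membrane glycoprotein gene, fell by 2.98 ± 0.22 on the log2 scale (SD, n = 3). Msln, the mesothelin gene, fell by 2.07 ± 0.27. No size is given for the brightest probe of Krt7, which saturated in the epithelial RNA of every array, and another, much dimmer probe gave -0.37. When saturated spots were left out, 3 of the 7 were called lower, and Krt7 had no value to test. Of markers of granulosa (5 tested), theca (5) and macrophages (2), 0 were called in either direction by limma, where 11.9% of all features were called. In that order, 0, 1 and 0 of them had an unadjusted p under 0.05. All 5, 5 and 2 were likewise flagged well above background in both RNAs on all 6 arrays. Summed marker intensity was 17860 to 27208 in mesenchymal and 17998 to 30186 in epithelial cultures for granulosa. For theca it was 4031 to 5411 in mesenchymal and 4080 to 5631 in epithelial cultures, and for macrophages 7093 to 11942 in mesenchymal and 6941 to 12568 in epithelial cultures.

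The genes lie on 4 chromosomes in the RefSeq annotation of assembly GRCm38.p6. Id1 is at chr2:152736251-152737410, Id2 at chr12:25093799-25096092, Id3 at chr4:136143822-136145392 and Id4 at chr13:48261116-48266028. Upstream windows from RefSeq (GRCm38.p6) are shown for Id2, the gene that changed, and for Id3 and Id4, which were not called. Each window holds the 250 bases before the annotated start, on the strand of the gene. Capitals mark the E-box CANNTG, the element ID proteins act on indirectly, and the letters GGCGCC and also CAGAC, which SMAD proteins are known to bind. Both strands were searched, so that CAGAC may appear as its reverse complement, and no marked matches overlapped.
Id2, chr12:25096093-25096342, minus strand: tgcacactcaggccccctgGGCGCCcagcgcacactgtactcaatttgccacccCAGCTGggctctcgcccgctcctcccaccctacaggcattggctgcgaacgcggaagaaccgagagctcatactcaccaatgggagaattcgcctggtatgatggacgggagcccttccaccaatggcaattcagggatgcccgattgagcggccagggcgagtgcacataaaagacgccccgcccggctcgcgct
Id3, chr4:136143572-136143821, plus strand: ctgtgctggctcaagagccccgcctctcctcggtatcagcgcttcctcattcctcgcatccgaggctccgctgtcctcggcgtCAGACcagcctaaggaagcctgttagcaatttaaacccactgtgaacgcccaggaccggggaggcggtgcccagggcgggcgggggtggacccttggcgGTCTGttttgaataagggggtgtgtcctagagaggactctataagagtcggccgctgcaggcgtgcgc
Id4, chr13:48260866-48261115, plus strand: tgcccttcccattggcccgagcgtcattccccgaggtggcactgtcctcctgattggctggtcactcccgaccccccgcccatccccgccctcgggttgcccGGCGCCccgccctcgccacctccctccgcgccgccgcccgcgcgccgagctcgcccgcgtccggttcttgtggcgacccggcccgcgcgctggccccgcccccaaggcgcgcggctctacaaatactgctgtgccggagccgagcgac

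The Id2 window held 1 E-box, at bases -196 to -191 from the start, and 1 GGCGCC, at -231 to -226. The Id3 window held 0 of either, and 2 of CAGAC, at -167 to -163 and at -68 to -64. The Id4 window held 1 GGCGCC, at -148 to -143, and 0 of the other 2 motifs. Among 32851 promoter windows of the same length, 66.2% held an E-box, 9.6% GGCGCC and 42.2% CAGAC on either strand. GC content was 62.8% in the Id2 window, 62.8% in that of Id3 and 75.6% in that of Id4, with a median of 52.4% over all windows. These matches describe letters only.

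Id2 is the member best known for also binding the retinoblastoma protein, a brake on cell division. Its probe gave 7663, 5022 and 3552 in mesenchymal RNA against 4527, 2802 and 1859 in epithelial RNA on the arrays of cultures 1, 2 and 3 that had mesenchymal RNA in Cy5. With the dyes exchanged it gave 5500, 5994 and 7181 in mesenchymal RNA against 2582, 2057 and 3391 in epithelial RNA. On every one of the 6 arrays the mesenchymal RNA was the brighter, although the ranges over arrays overlapped, at 3552 to 7663 in mesenchymal and 1859 to 4527 in epithelial RNA. Such agreement was usual among called features, as 1286 of 2121 had the same sign on all 6 arrays.

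Averaged within cultures, Id2 intensity was 6492, 5486 and 5051 in mesenchymal cells of cultures 1, 2 and 3, against 3419, 2401 and 2510 in epithelial cells. All 3 mesenchymal values lay above the highest epithelial one. The share of all features whose groups separate in this way was not counted here. The means were 5676 ± 739 in mesenchymal and 2776 ± 559 in epithelial cells (SD, n = 3 cultures each). The log2 ratios of the cultures were 0.93, 1.19 and 1.01. Id2 therefore rose by 1.04 ± 0.14 on the log2 scale (95% confidence interval 0.85 to 1.24), a 2.06-fold rise (1.80 to 2.36), with a limma adjusted p of 0.000926. Its log2 ratio ranked 120 of 17861 features from the top, and 99.3% of features had a lower one. In these bulk RNAs, more cells that express a gene and more RNA per cell cannot be told apart.

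The Id2 rise was present with either dye. The mean log2 ratio was 0.85 over the 3 arrays with mesenchymal RNA in Cy5 and 1.24 over the 3 with it in Cy3, and each was called on its own. No dye effect cancels in these 1-orientation fits, which called 7200 and 6020 features. The dye effect of the probe was -0.20, smaller in size than the SD of dye effects over features. Leaving out 1 culture at a time gave 0.97 to 1.10, and 5 arrays without the one that stood apart gave 1.09 (limma adjusted p = 0.000849).

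**Figure D1:**
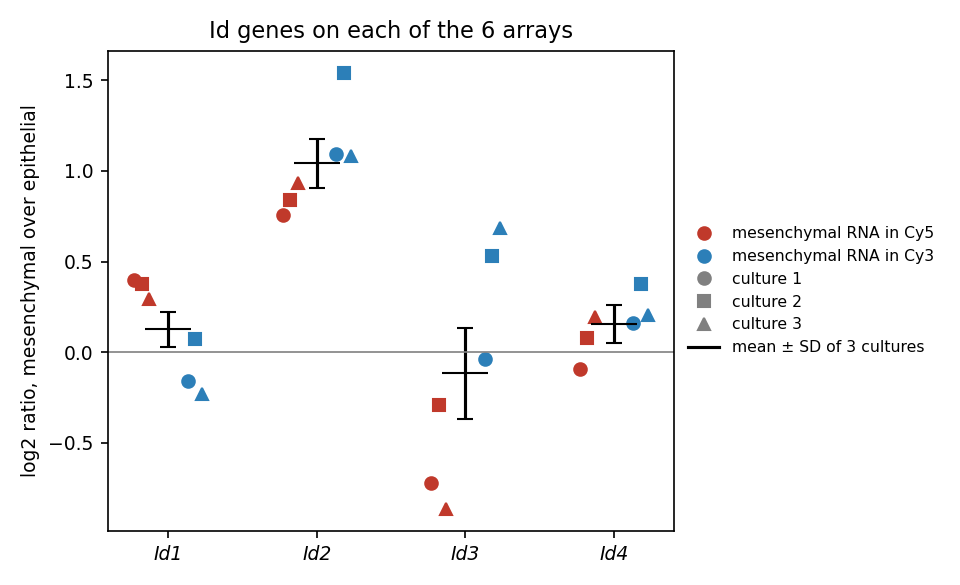
Log2 ratio of mesenchymal over epithelial RNA (vertical axis) for the 4 Id genes on each of 6 arrays; colour gives the dye of the mesenchymal RNA, the marker the culture, and black bars the mean ± SD of 3 cultures. All 6 arrays lie above 0 for Id2, 5 for Id4, 4 for Id1 and 2 for Id3, and the colours separate for Id1, Id2 and Id3 but overlap for Id4.

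Id1 is the founding member of the family and a standard readout of BMP signalling. On the annotation of 1 array its probe is described by an accession for Id1B, an alternative form of the transcript, so that form may be what it measured. Arrays with mesenchymal RNA in Cy5 gave 1286, 1226 and 1011 in mesenchymal RNA of cultures 1, 2 and 3 against 976, 943 and 826 in epithelial RNA. The exchanged arrays gave 1236, 947 and 1164 in mesenchymal RNA against 1381, 899 and 1368 in epithelial RNA. The mesenchymal RNA was thus brighter on all 3 arrays of the one orientation and on 1 of 3 of the other.

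Culture means for Id1 were 1261, 1078 and 1085 in mesenchymal cells against 1161, 921 and 1063 in epithelial cells, and the groups overlapped. The cultures' log2 ratios were 0.12, 0.23 and 0.03, all above 0. Their mean of 0.13 ± 0.10 (95% confidence interval -0.06 to 0.31) did not pass the test (limma adjusted p = 0.408). Its dye effect, 0.23, was larger than this mean. Over arrays with mesenchymal RNA in Cy5 alone the log2 ratio was 0.36, and over those with it in Cy3 alone it was -0.11.

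Id3 is co-expressed with Id1 in many tissues and is also a target of BMP signalling. Its probe gave, on arrays with mesenchymal RNA in Cy5, 18858, 29387 and 23769 in mesenchymal RNA of cultures 1, 2 and 3 against 31118, 36046 and 43308 in epithelial RNA. On the exchanged arrays it gave 34268, 39361 and 31329 in mesenchymal RNA against 35236, 27297 and 19478 in epithelial RNA. The RNA in Cy3 was the brighter on 5 of the 6 arrays, the exception being culture 1 with mesenchymal RNA in Cy3.

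Culture means for Id3 were 25421, 34010 and 27289 in mesenchymal cells against 33113, 31368 and 29044 in epithelial cells, and the groups overlapped. The log2 ratios were -0.38, 0.12 and -0.09, so the cultures differed in sign. Their mean was -0.12 ± 0.25 (95% confidence interval -0.38 to 0.14, limma adjusted p = 0.618). The dye effect, -0.51, was the largest in size of the 4 genes, and the log2 ratio was -0.63 over arrays with mesenchymal RNA in Cy5 and 0.39 over those with it in Cy3.

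Id4 is the member that has been described as working against its relatives in some cells. In the orientation with mesenchymal RNA in Cy5, its probe gave 2681, 2736 and 2430 in mesenchymal RNA of cultures 1, 2 and 3 against 2861, 2589 and 2123 in epithelial RNA. The exchanged arrays gave 2233, 3069 and 3374 in mesenchymal RNA against 2001, 2366 and 2929 in epithelial RNA. The mesenchymal RNA was brighter on 5 of the 6 arrays, the exception being culture 1 with mesenchymal RNA in Cy5.

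Culture means for Id4 were 2447, 2898 and 2864 in mesenchymal cells against 2393, 2475 and 2493 in epithelial cells, and the lowest mesenchymal value lay within the epithelial range. The log2 ratios were 0.03, 0.23 and 0.20, with a mean of 0.15 ± 0.11 (95% confidence interval -0.03 to 0.34, limma adjusted p = 0.306). Its dye effect was -0.09. Without culture 1 the mean was 0.21 and passed the threshold, in a fit that called 5215 features against 2121 with all 3 cultures. Without culture 2 it was 0.12 and without culture 3 it was 0.13, and neither passed.

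**Figure D2:**
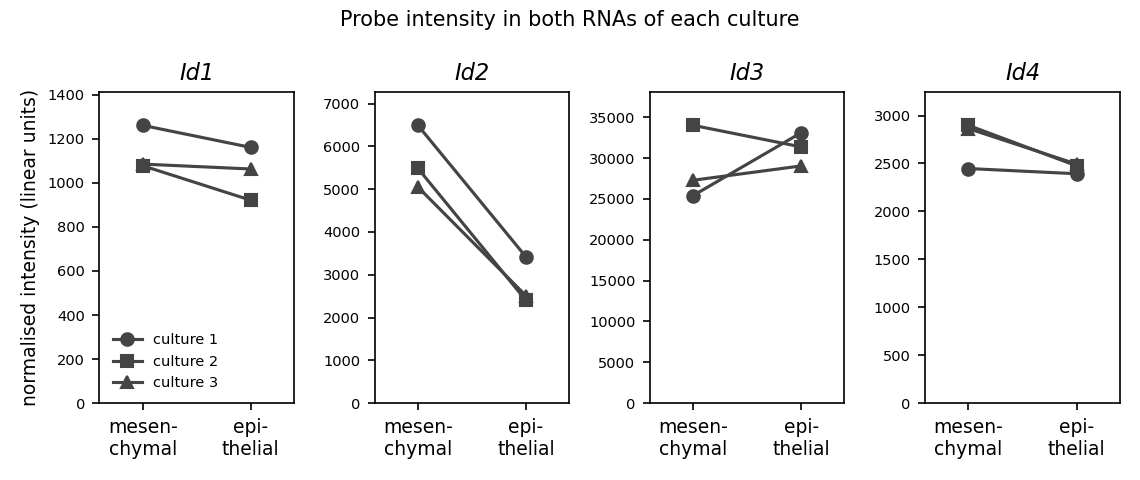
Normalised intensity (linear units, from 0) of the 4 Id probes in mesenchymal and epithelial RNA, with a line joining both RNAs of a culture (mean of its 2 arrays). The Id2 values are 5051 to 6492 in mesenchymal cells and 2401 to 3419 in epithelial cells, without overlap. The Id1, Id3 and Id4 groups overlap. The share of all features without overlap was not counted, and levels cannot be set against each other between panels.

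The members' log2 ratios were also set against each other within cultures, over all 6 pairs. Id2 minus Id1 was 0.92 ± 0.10, Id2 minus Id3 was 1.16 ± 0.13 and Id2 minus Id4 was 0.89 ± 0.08 (SD, n = 3 cultures). These differences were above 0 in each culture. Each had an exact two-sided sign-flip permutation p of 0.25, the smallest that 3 cultures allow, and 0.3 after adjustment over the 6 pairs, so this test could not separate the members. Id1 minus Id3 was 0.24 ± 0.22 and Id4 minus Id3 was 0.27 ± 0.15, each with the same exact p. Id4 minus Id1 was 0.03 ± 0.13 and changed sign between cultures (exact p = 0.75). The 95% confidence interval of Id2, 0.85 to 1.24, lay above those of the other 3 genes, the highest of which ended at 0.34. These intervals were taken gene by gene and leave out the pairing within cultures, so they do not test a difference between members.

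Among 7510 named genes measured in all 3 cultures, those whose culture values lay closest to those of Id2 were Slco3a1, Ptgr1 and Wnt4. Likeness was the root mean square difference of the log2 ratio over 3 cultures, which was 0.050, 0.065 and 0.085 in that order. Slco3a1, an organic anion transporter gene, had 0.91, 1.25 and 1.07 in cultures 1, 2 and 3. Ptgr1, a prostaglandin reductase gene, had 1.04, 1.19 and 1.03. Wnt4, a signalling protein gene needed for ovary formation, had 1.07, 1.24 and 1.01. All 3 were above 0 on all 6 arrays. Over 3 points such likeness is a description only.

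The E proteins, the direct partners of ID proteins, had 3 tested genes, of which 0 were higher and 1 was lower, with a median log2 ratio of 0.04. Over all features, 5.94% were called higher and 5.93% lower, and the counts of this list and those below stand beside these shares. In lists this small, a count of 0 or 1 is not read as a result about the list. Tcf12, which encodes the E protein HEB, fell by 0.71 ± 0.32 (limma adjusted p = 0.0164). Its fall was seen with 1 dye orientation only, at -1.70 with mesenchymal RNA in Cy5 against 0.28 with it in Cy3, and another, dimmer probe gave -0.29. The brightest probe of Tcf4, the gene of E2-2, was at 0.09 ± 0.15, and 2 other probes of it were at 0.46 and 0.09.

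Class II factors, the tissue-specific partners of E proteins, had 14 tested of 32 genes. Of these 14, 0 were called in either direction by limma, against 11.9% of all features, and 0 had an unadjusted p under 0.05. Their median log2 ratio was 0.01. The brightest, Myod1, a muscle determination factor, and Neurog1, a neuronal one, were at 0.03 ± 0.09 and -0.05 ± 0.25. Twist1 and Tcf21, mesenchymal factors picked after their values were seen, were at 0.01 ± 0.14 and -0.20 ± 0.25. Both changed sign by dye orientation. Twist1 was at -0.33 and Tcf21 at -0.45 with mesenchymal RNA in Cy5, against 0.35 and 0.05 with it in Cy3. Of 5 tested repressors of the Hes, Hey and Bhlhe families 0 were called by limma and 1 had an unadjusted p under 0.05, with a median of -0.02. Bhlhe40, a serum- and hypoxia-inducible repressor, was at 0.47 ± 0.19 over 2 cultures (limma adjusted p = 0.0546) with a dye effect of -2.21. With outlier-flagged spots kept, which brings in culture 1, it was at 0.19, and in the authors' deposited table it came to 0.20 on the log2 scale. Hey1, a Notch and BMP target, was at -0.06 ± 0.01.

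**Figure D3:**
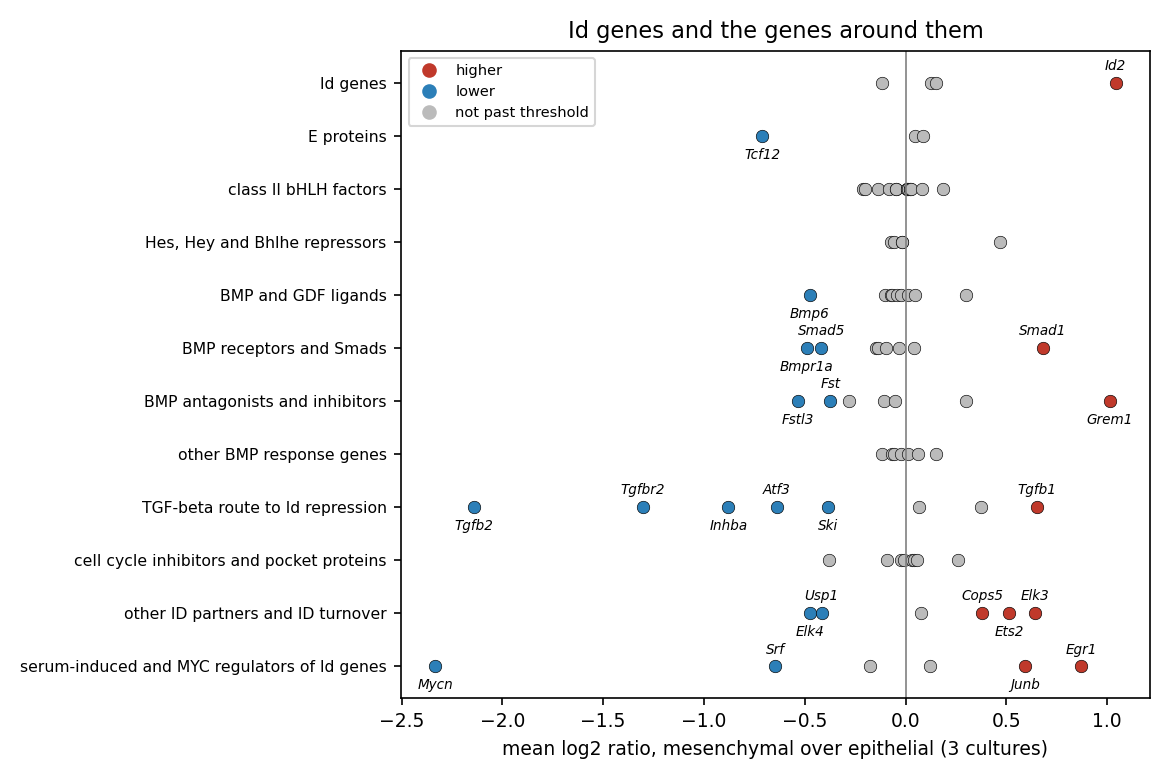
Mean log2 ratio of mesenchymal over epithelial RNA (3 cultures, 2 for a few genes) for the tested genes of each list other than the cell type markers, with 1 point per gene; red and blue mark genes called higher and lower, grey those not past the threshold, and called genes are labelled. Id2 is the only called Id gene, at 1.04; the leftmost of the genes plotted are Mycn at -2.33 and Tgfb2 at -2.14.

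BMP ligands, which act upstream of Id genes, had 9 tested, with 0 higher, 1 lower and a median of -0.04. Bmp6 fell by 0.47 ± 0.20 (limma adjusted p = 0.0253), and was below 0 on all 6 arrays. Bmp4 was at 0.30 ± 0.30 (limma adjusted p = 0.193), but its probe was saturated in mesenchymal RNA on 3 arrays and in epithelial RNA on 1. It had no value once saturated spots were left out, and was at 0.15 without culture 1. Of 8 receptors and Smads tested, 1 was higher and 2 were lower, with a median of -0.12. Smad1, a transducer of BMP signals to Id genes, rose by 0.68 ± 0.28 (limma adjusted p = 0.0136), with 0.48 from another probe. Smad1 was at -0.02 over arrays with mesenchymal RNA in Cy5 alone. Smad5, which acts beside it, fell by 0.42 ± 0.08, with -0.01 from another, dimmer probe. Bmpr1a, a type I receptor gene, fell by 0.49 ± 0.27 and had -0.14 and -0.23 from 2 other probes. By dye orientation Bmpr1a was at -1.13 with mesenchymal RNA in Cy5 and 0.15 with it in Cy3. When all probes of a gene were averaged, 0 of the 8 were lower.

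BMP antagonists had 7 tested, with 1 higher, 2 lower and a median of -0.11, and 2 were higher in a fit of all 6 arrays with a dye term and the culture as a replicate block. Grem1, which encodes the secreted BMP antagonist gremlin, rose by 1.01 ± 0.64 and was above 0 on all 6 arrays (limma adjusted p = 0.0342). Its cultures differed, at 1.75, 0.67 and 0.62, and without culture 1 the mean was 0.64. Arrays with mesenchymal RNA in Cy3 alone gave 0.63, which did not pass (limma adjusted p = 0.112). The follistatin genes Fst and Fstl3, whose products bind activins and some BMPs, fell by 0.37 ± 0.05 and by 0.53 ± 0.16. Calls were lost over the whole array when culture 2 or culture 3 was left out, with 1174 and 840 features called against 2121 with all 3 cultures. Without culture 3, 0 genes of the BMP ligand, receptor, Smad and antagonist lists passed. Bmp6 was then at -0.50, Smad1 at 0.63, Smad5 at -0.46, Bmpr1a at -0.61, Grem1 at 1.21, Fst at -0.40 and Fstl3 at -0.51. Without culture 2, Smad5 (-0.42), Bmpr1a (-0.35), Fst (-0.35) and Fstl3 (-0.46) did not pass. Without the array that stood apart, Smad1 was at 0.66 and Fst at -0.34, and neither passed. Of 7 other genes known to respond to BMPs, 0 were called by limma and 0 had an unadjusted p under 0.05, with a median of -0.02, Hey1 and Runx2 (0.15 ± 0.06) being the brightest.

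Genes of TGF-beta signalling, which is known to repress Id genes through ATF3 in epithelial cells, had 8 tested, 1 higher and 5 lower, with a median of -0.51. Tgfb2, a ligand, fell by 2.14 ± 0.11 (limma adjusted p = 9.46e-05), with -1.51 from another probe over 2 cultures. Tgfbr2, the type II receptor gene, fell by 1.30 ± 0.10 through its brightest probe, while another probe of it gave 0.07 and the mean of both was -0.62. Inhba, an activin subunit gene, fell by 0.88 ± 0.25 but was below 0 on 3 of 6 arrays only, with -2.51 when mesenchymal RNA was in Cy5 and 0.75 when it was in Cy3. The other called genes, named after their values were seen, were Atf3 (-0.64 ± 0.07) and Ski (-0.39 ± 0.06), which encodes a Smad corepressor, among those lower, and Tgfb1 (0.65 ± 0.15) as the higher one. Ski did not pass without culture 2 (-0.41) or without culture 3 (-0.40). With the replicate block 2 of the 8 were higher.

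Cell cycle inhibitors and pocket proteins, among them targets and partners of ID proteins, had 8 tested with 0 called by limma, 2 at an unadjusted p under 0.05 and a median of 0.01. In the fit of all 6 arrays with the culture as a replicate block 1 of the 8 was lower. Cdkn2b, which encodes the inhibitor p15, was at 0.26 ± 0.11 and Rbl1, the p107 gene, at -0.09 ± 0.24. Both changed sign by dye orientation. Cdkn2b was at -0.11 and Rbl1 at -0.31 with mesenchymal RNA in Cy5, against 0.63 and 0.13 with it in Cy3. Rb1, the gene of the retinoblastoma protein, picked after its value was seen, was at -0.38 ± 0.22 (limma adjusted p = 0.0587), and was the gene called with the replicate block (limma adjusted p = 0.0175). Rb1 also passed with the scanner software's processed signals, with median centring in place of loess and in the authors' deposited table, but not in several other settings. Another, dimmer Rb1 probe gave 0.04. Cdkn1a, the p21 gene and a target that ID proteins are known to hold down, picked in the same way, was at -0.01 ± 0.14.

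Other partners of ID proteins and genes of their turnover had 6 tested, 3 higher and 2 lower, with a median of 0.23. Elk3, a ternary complex factor that ID proteins can bind, rose by 0.64 ± 0.11, while another, dimmer probe gave -0.06 and the mean of both did not pass. Ets2, an ETS factor that ID1 is known to oppose, rose by 0.51 ± 0.03, and a further probe gave 0.16, with a mean of 0.34 over both. Elk4, another ternary complex factor, fell by 0.48 ± 0.21, but by dye orientation it was -1.37 with mesenchymal RNA in Cy5 and 0.42 with it in Cy3. Without culture 3, Ets2 (0.50) and Elk4 (-0.48) did not pass, nor did they without the array that stood apart (0.51 and -0.55). The other called genes, named after their values were seen, were Cops5 (0.38 ± 0.07), a subunit of the COP9 signalosome, and Usp1 (-0.42 ± 0.17), a deubiquitinase known to stabilise ID proteins. Usp1 was above 0 on 3 of 6 arrays, at 0.44 with mesenchymal RNA in Cy3 alone, and did not pass with the replicate block (limma adjusted p = 0.0694) or without culture 2 (-0.35). Cops5 was at -0.12 with mesenchymal RNA in Cy5 alone, and at 0.41 without culture 2 it did not pass. Without culture 3, where 840 features were called over the array, 1 of the 6 was higher and 0 were lower.

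Serum-induced factors and the MYC genes, among them reported regulators of Id genes, had 6 tested, 2 higher and 2 lower, with a median of -0.03. Mycn, which encodes N-MYC, a reported activator of ID2 in human neuroblastoma, fell by 2.33 ± 0.27 (limma adjusted p = 0.000209) and was below 0 on all 6 arrays. Myc, named after its value was seen, was at -0.18 ± 0.03. Egr1, an immediate early serum response gene and known activator of Id genes, rose by 0.87 ± 0.37 (limma adjusted p = 0.0114), and at 0.84 without culture 3 it did not pass. The other higher gene, Junb, an AP-1 factor gene named after its value was seen, was at 0.59 ± 0.37. Junb did not pass without culture 2 (0.45), and 0 of the 6 were higher without culture 3, where 840 features were called over the array. Srf, the serum response factor gene, fell by 0.65 ± 0.01, with -0.13 from another probe, and averaged over both probes it did not pass.

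In 2 marker lists of cells in which Id genes are known to be active, 1 gene each was called. With 11.9% of all features called, 1 gene in so short a list is not read as a result about the list. Of 4 endothelial markers tested, Flt1 rose by 0.56 ± 0.20 and the other 3 were not past the threshold, with Kdr at 0.22 ± 0.03. Their summed intensity was 6880 to 10033 in mesenchymal and 5443 to 9004 in epithelial cultures, and all 4 were flagged above background on all arrays in both RNAs. Of 5 smooth muscle and pericyte markers, Actg2 fell by 0.44 ± 0.18 and 0 were higher, with sums of 10493 to 13083 in mesenchymal and 10488 to 15406 in epithelial cultures. Actg2 was dim, flagged above background on 5 of 6 arrays in each RNA, and had no value where all 6 were required. Without the array that stood apart Flt1 was at 0.51 and did not pass. Without culture 3 neither Flt1 (0.63) nor Actg2 (-0.44) passed, and Actg2 (-0.35) did not without culture 2. Their part in the Id2 result was not tested.

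**Figure D4:**
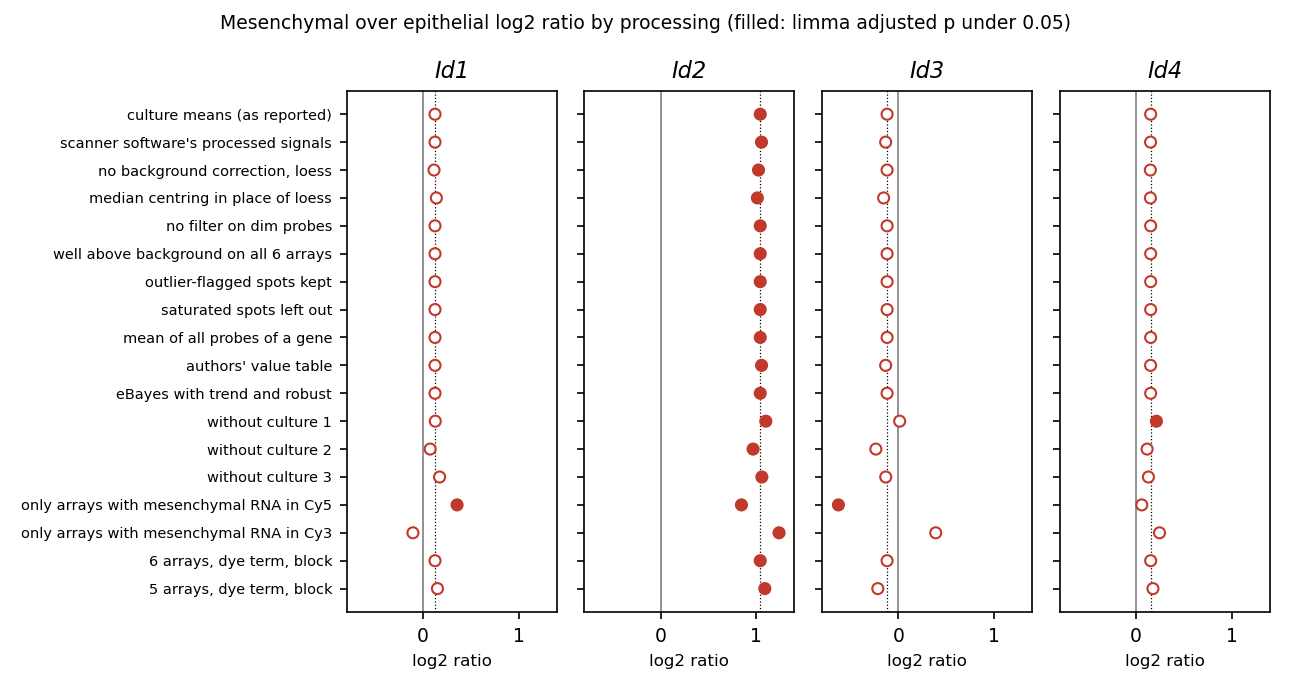
Log2 ratio of mesenchymal over epithelial RNA (horizontal axis) for each Id gene under the reported processing and each alternative (rows); filled points have a limma adjusted p under 0.05, and the dotted line is the reported value. Id2 is filled in every row, from 0.85 to 1.24, while Id1 and Id3 change sign between the rows that use 1 dye orientation.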

How the data were processed

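Per the labels, amplified RNA from 4 µg of total RNA, taken at 80% confluence, was labelled with Cy3 or Cy5. Per the file headers, the deposited intensity columns are spot means and local backgrounds in linear units, written by Agilent Feature Extraction. The deposited log10 value table equals, from its values, the authors' mesenchymal over epithelial difference of a culture's 2 arrays divided by 2, on the log10 scale, with medians of 0.00555, -0.0101 and -0.00233. The submitters' processing notes list limma, and its settings are not given in the sources used here. Dye orientation was taken from the names of the deposited arrays, so the direction of every ratio rests on them.

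From the deposited intensities, log2 ratios were computed with limma 3.58.1 under R 4.3.3 (normexp, offset 50, loess, control spots at weight 0), turned to mesenchymal over epithelial and averaged per culture. Outlier-flagged spots were left out, and saturated ones kept. A probe had to be well above background in the same RNA on at least 4 arrays, which removed 43, and a feature needed 2 cultures (2154 rested on 2). Each gene was read from its brightest probe. Ratios were tested against 0 with lmFit and eBayes, adjusted over all 17861 features, of which 9091 were named. Intensities per RNA were taken after loess and Aquantile scaling. Names came from gene IDs matched to RefSeq GRCm38.p6 (9946 probes), current symbols (88), synonyms (692), accessions (65) or, for 689, the array's own annotation, which left 8891 without a name. The number of arrays limits the precision, and probe sequences were not used here, so cross-hybridisation between Id genes was not tested. The fit was tested on simulated culture values, drawn with the fitted spread of each feature and known changes. Dye effects and saturation were not simulated there, so that test says nothing about them. The members and lists were chosen with earlier results of these data known. Of each list, the up to 3 called genes with the largest change are named, or the brightest to make 2, and list genes with no tested probe were not analysed here. The same culture numbers mark both RNAs of an array, so each ratio is paired by design.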

Additional observations from a re-analysis of the deposited data

How the results depend on the processing

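Of 19 alternatives, 18 gave values for the Id genes. Id2 was higher and past the threshold in all 18, at 1.01 to 1.09 outside the splits by dye and by culture. Several of these settings could not move its value from 1.04. Its 1 probe had no outlier-flagged or saturated spot and was flagged above background on all 6 arrays. Id2 minus each other member was above 0 in 17 of 17 (0.49 to 1.47), and several of these differences were fixed in the same way. Leaving out 1 culture gave 0.97 to 1.10 for Id2, 0.075 to 0.17 for Id1, -0.24 to 0.013 for Id3 and 0.12 to 0.21 for Id4, with Id4 called at 0.21 without culture 1. The number of features called was 840 to 5215 when 1 culture was left out, with 1174 without culture 2. It was 7200 over arrays with mesenchymal RNA in Cy5 and 6020 over those with it in Cy3, where no dye effect cancels, 951 at an adjusted p under 0.01 and 321 with a 2-fold minimum. Over arrays with mesenchymal RNA in Cy5, Id1 was called at 0.36 and Id3 at -0.63, and over those with it in Cy3 they were at -0.11 and 0.39. Other genes changed sign by dye. With mesenchymal RNA in Cy5, Amh was at 0.43, Bhlhe40 at -1.89, Cdkn2b at -0.11, Cyp11a1 at 0.42, Hey1 at 0.27, Neurog1 at 0.42, Smad1 at -0.020, Cops5 at -0.12 and Twist1 at -0.33. With it in Cy3, Bmpr1a was at 0.15, Elk4 at 0.42, Inhba at 0.75, Rbl1 at 0.13, Tcf12 at 0.28 and Usp1 at 0.44. A fit of all 6 arrays with a dye term and the culture as a replicate block called 2537 features and Id2 at 1.04 (limma adjusted p = 0.000109). It gained the call of Rb1, as some other settings did, and lost that of Usp1. The same fit without the array that stood apart, chosen after seeing the data, called 1683. Slide as a block was not run, since each of the 6 slides held 1 array. Why values moved was not tested, apart from the dye splits and the smaller number of cultures that define these alternatives.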
